A study of Mus musculus with 2 samples.

Results

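The Sfmbt2 intronic miRNA cluster is a tandem array of miRNA hairpins on mouse chromosome 2. Its members were taken by position, as all features of the deposited smRNA-seq miRNA table that start in a window of chromosome 2 around the gene Sfmbt2 (chr2:10370510-10595253, GRCm38), which gave 119 of the 1638 features. The study followed epigenetic reprogramming in germ cells and in germ cell-like cells made in culture, and the smRNA-seq data analysed here were 1 library of mESCs and 1 library of prospermatogonia. The mESCs were wild-type embryonic stem cells of the mouse line E14. The methods describe a feeder-free culture of such cells with LIF and inhibitors of MEK and GSK3, but the sources used here do not say that this library came from it. The prospermatogonia were wild-type C57Bl/6J germ cells from male embryos at E15.5 (embryonic day), collected from matings of females with an Oct-4/GFP transgene. The sample labels name them primordial germ cells (PGC), and both libraries were made from total RNA. With 1 library of each kind there was no replicate and no test across conditions, so that every comparison is between these libraries and not between the conditions.

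Sfmbt2 encodes a Polycomb group protein and is an imprinted gene, expressed from the paternal allele in the early embryo and in extraembryonic tissue, where it is needed for trophoblast development. One of its introns holds a large array of miRNA hairpins of the Mir297, Mir466, Mir467 and Mir669 families, which arose by repeated duplication in rodents. A miRNA is cut from a hairpin as a short mature strand, and its seed, the bases near the 5′ end, pairs with target mRNAs. Copies that differ by a few bases can therefore give identical mature strands, and a read from such a strand has several equally good places in the genome.

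Pairs of a member with reads and a near copy without a read are shown to make visible how few bases can separate them. These pairs are among the closest. Identity to the copy with the longest shared stretch was lower for Mir669l (87.1%), Mir466n (85.2%) and Mir669c (79.1%). It was 91.7% for Mir669h and 93.7% for Mir467c and AL772216.58. The hairpins are those of GENCODE vM21 on GRCm38, written 5′ to 3′ on the plus strand with T for U, and capitals in each pair mark the bases that differ between the aligned hairpins. Mir669o at chr2:10514300-10514395 and Mir669a-4 (AL772216.18 in the table) at chr2:10479315-10479401 form such a pair, with reads in Mir669o only.
Mir669o: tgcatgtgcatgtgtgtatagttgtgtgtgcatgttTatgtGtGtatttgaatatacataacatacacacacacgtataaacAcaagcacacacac
Mir669a-4: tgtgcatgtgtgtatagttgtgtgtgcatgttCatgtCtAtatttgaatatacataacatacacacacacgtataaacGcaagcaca
Here 83 of 87 aligned positions (95.4%) were identical and the longest common stretch was 38 bases, which 12 members without a read held. Mir4660 of the table, at the position of Mir466o in GENCODE (chr2:10472540-10472623), and Mir466b-4 (AL772216.60 in the table, chr2:10486423-10486512) differed by no substitution, and the 6 capitals mark bases that only Mir466b-4 has. Mir4660 itself had only 2 reads, both in mESCs.
Mir4660: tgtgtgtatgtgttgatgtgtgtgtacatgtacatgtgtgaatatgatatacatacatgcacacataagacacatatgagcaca
Mir466b-4: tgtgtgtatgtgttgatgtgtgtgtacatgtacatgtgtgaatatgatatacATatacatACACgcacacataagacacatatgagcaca
In Mir669c at chr2:10509296-10509404, by contrast, the capitals mark the bases that lie in a 20-base window found in no other annotated mouse miRNA hairpin.
Mir669c: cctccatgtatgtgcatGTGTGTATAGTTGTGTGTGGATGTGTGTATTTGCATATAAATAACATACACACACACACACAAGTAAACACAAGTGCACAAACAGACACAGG

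The RefSeq table used here (GRCm38.p6) matched no member to a mature sequence of its own, but it held those of family copies elsewhere in the genome. The mature strand of Mir467h, at chr9:115381898-115381919, is shown because Mir467c and Mir467e hold close relatives of it, with its seed (bases 2 to 8) in capitals.
mmu-miR-467h: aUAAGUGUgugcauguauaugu
In the stretches of the members nearest to it, capitals mark the bases that differ from mmu-miR-467h.
Mir467c: ataagtgCgtgcatgtatatgt
Mir467e: ataagtgtgAgcatgtatatgt
The stretches of Mir467c and Mir467e each occur in 1 hairpin only, and both members had reads in both libraries. The seed of mmu-miR-467h occurs in a single member, Mir467e, whose stretch differs from the mature strand at 1 base outside the seed. Mir467c also differs at 1 base, which lies within the seed. In Mir669c a stretch with 1 difference from mmu-miR-669n (chr3:115979905-115979924) was likewise found in no other hairpin.
mmu-miR-669n: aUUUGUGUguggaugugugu
Mir669c: aGttgtgtgtggatgtgtgt
Here the capitals mark the seed in the mature strand and the differing base in Mir669c.

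The 119 members lie between 10465287 and 10518279, which is 53.0 kb with 2.25 features per kb, all on the plus strand like Sfmbt2 itself. Of the 7 annotated Sfmbt2 transcripts 2 span the array, which falls within a single intron of both (chr2:10461473-10523944, intron 10 of the first and intron 11 of the second), and no member overlaps an exon of either. The other 5 transcripts end before the array. The hairpins are 73 to 127 bases long with a median of 98, and the median distance between neighbouring starts is 296 bases. The array is rich in A and U, with median shares of 32.0% A and 31.0% U against 22.7% A and 26.5% U over 2202 annotated miRNA hairpins.

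The table gives log2 values per library, in which features without a read carry the lowest value, 1.00 in the mESC library and -1.67 in the prospermatogonia library. The values above it were whole multiples of a constant on the linear scale, within 0.0140 reads, so that reads could be recovered. In RPM, the reads a library of 1000000 would hold, 1 read came to 2.22 for mESCs and 0.348 for prospermatogonia. Read as RPM, this gives library totals of 449643 and 2869578 reads, of which 110455 (24.6%) and 155237 (5.41%) fell on miRNA features. A count of 0 allows a member as much as 3 reads, a limit of 6.67 RPM for mESCs and of 1.05 RPM for prospermatogonia. The Mir290 cluster, used here as a marker of mESCs, made up 24.5% of miRNA reads in mESCs and 3.25% in prospermatogonia. A set of 6 features of male germ cells held 13 and 15772 reads. Of 4 blood features Mir144 and Mir223 were at 0 in both libraries, Mir451 had 0 and 1 reads and Mir142 400 and 124, Mir126 of endothelium had 255 and 40, and 8 features of gonadal somatic cells held 1721 and 877 reads. Of these Mir143 had 1393 and 260 reads, whereas Mir140 (280 and 558) and Mir202 (0 and 57) had more reads in prospermatogonia. In RPM, with a read worth 2.22 for mESCs and 0.348 for prospermatogonia, Mir140 was lower in prospermatogonia. The part of blood, endothelial and gonadal somatic cells in the values of the array was not tested.

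Most of the array had no read at this depth. In the mESC library 10 of 119 members (8.40%) rose above the lowest value, against 17.4% of all features, and in the prospermatogonia library 8 of 119 (6.72%), against 19.4% of all features. A total of 7 members had reads in both libraries, 3 in mESCs only (Mir669e, Mir4660 and Mir669h) and 1 in prospermatogonia only (Mir466g). The remaining 108 had no read in either. Over all features 248 had reads in both libraries, 37 in mESCs only and 69 in prospermatogonia only. The members with reads were few, and each of the 4 that appeared in 1 library alone had 4 reads or fewer there. In the other library a level below the limit of 3 reads was not detectable.

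**Figure D1:**
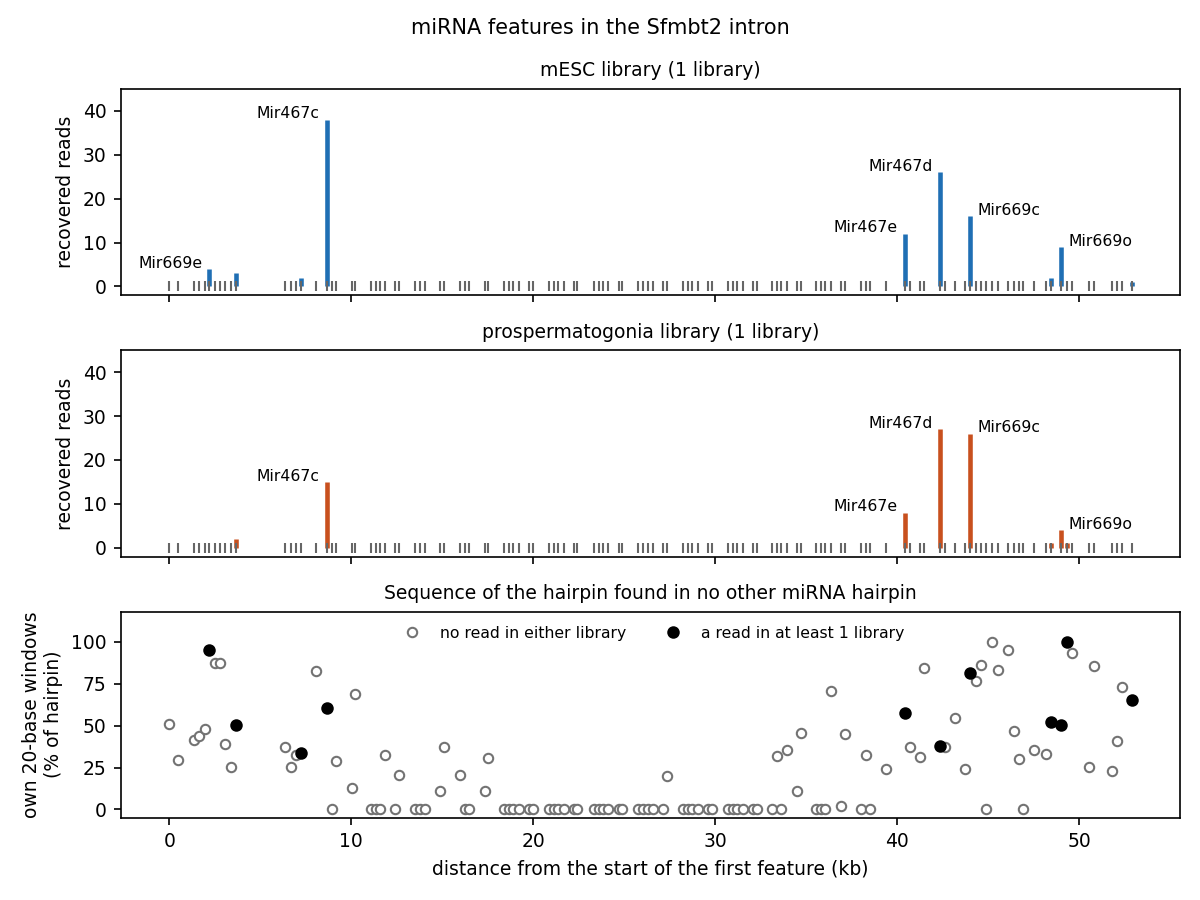
Recovered reads (y axis, upper panels) along the array (x axis, distance in kb from the start of the first feature) in the mESC and prospermatogonia libraries, with grey ticks for all 119 members, and below them the percentage of each hairpin's 20-base windows found in no other miRNA hairpin. The reads stand at both ends of the array in both libraries, and the 72 members between Mir467c and Mir467e, most of them at 0% own windows, had none.

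The cluster as a whole held 113 reads in the mESC library and 84 in the prospermatogonia library. In mESCs this was 0.102% of miRNA reads (95% Wilson interval 0.0851 to 0.123), and in prospermatogonia it was 0.0541% (0.0437 to 0.0670). The share of the cluster was 1.89-fold lower in prospermatogonia (1.43 to 2.51), a log2 ratio of -0.92 (-1.32 to -0.51). All intervals given here cover counting error only, since PCR reads without molecular identifiers are not independent molecules. In bulk samples such as these, fewer cells that express a miRNA and less of it per cell cannot be told apart.

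On the scale of the library total the cluster was at 251 RPM in mESCs and 29.3 RPM in prospermatogonia, 8.59-fold lower (6.48 to 11.4). All miRNA reads together were 4.54-fold lower on that scale. The choice of total thus sets the size of the difference, while the sum over the cluster was lower in prospermatogonia on either one. At the mESC share of miRNA reads the prospermatogonia library would have held 159 cluster reads, and it held 84. This restates the ratio of shares in reads, and the part of depth in it was not tested.

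A few members made up nearly all of the cluster's reads. The 4 with the most reads were the same in both libraries, Mir467c, Mir467d, Mir669c and Mir467e, and held 92 of 113 reads (81.4%) in mESCs and 76 of 84 (90.5%) in prospermatogonia. With Mir669o, the next in both libraries, this came to 101 reads (89.4%) and 80 reads (95.2%). The array was low even at its highest member, which ranked 110th of the 285 features with reads in mESCs (Mir467c) and 131st of 317 in prospermatogonia (Mir467d).

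Mir467c had 38 reads in the mESC library and 15 in the prospermatogonia library, or 84.5 and 5.23 RPM. It was the leading member in mESCs, with 33.6% of the cluster's reads (25.6 to 42.7), and stood behind Mir467d and Mir669c in prospermatogonia with 17.9% (11.1 to 27.4). Its share of miRNA reads was 3.56-fold lower in prospermatogonia, with a log2 ratio of -1.83 (-2.68 to -0.98). This interval does not reach 0, but it treats reads as independent, and a difference between the conditions was not tested.

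Mir467d had 26 reads in mESCs and 27 in prospermatogonia, 57.8 and 9.41 RPM. It was second in mESCs with 23.0% of the cluster's reads and first in prospermatogonia with 32.1%. The log2 ratio of its shares of miRNA reads was -0.44 (-1.20 to 0.33), an interval that holds both a fall of more than 2-fold and a small rise.

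Mir467e had 12 reads in mESCs and 8 in prospermatogonia, 26.7 and 2.79 RPM. It took a like part of the cluster in both libraries, 10.6% and 9.52%. The log2 ratio of its shares of miRNA reads was -1.08 (-2.33 to 0.18). The order of the Mir467 members therefore differed between the libraries, with Mir467c above Mir467d in mESCs and below it in prospermatogonia, and with Mir467e lowest in both. In mESCs the intervals of Mir467c and Mir467d within the cluster overlapped (25.6 to 42.7 and 16.2 to 31.6%), as they did in prospermatogonia (11.1 to 27.4 and 23.1 to 42.7%).

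Mir669c had 16 reads in mESCs and 26 in prospermatogonia, 35.6 and 9.06 RPM. Its part of the cluster was 14.2% (8.91 to 21.8) in mESCs and 31.0% (22.1 to 41.5) in prospermatogonia, and these intervals do not overlap. Among the 5 leading members it alone had a higher share of miRNA reads in prospermatogonia, with a log2 ratio of 0.21, though the interval (-0.68 to 1.09) includes 0. In RPM it was lower there, by a log2 ratio of -1.97 (-2.86 to -1.09), so that its direction depends on the total it is scaled to.

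Mir669o had 9 reads in mESCs and 4 in prospermatogonia, 20.02 and 1.39 RPM. The log2 ratio of its shares of miRNA reads was -1.66 (-3.27 to -0.047), which barely leaves out 0. Within the Mir669 family Mir669c and Mir669o thus lay on opposite sides of equal shares, with intervals that overlap.

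The remaining members had too few reads for a ratio of use. Mir669e had 4 reads in mESCs, or 8.90 RPM (3.46 to 22.9), and 0 in prospermatogonia, which allows up to 1.05 RPM. Mir669l had 3 and 2 reads and Mir466n 2 and 1, with log2 ratios of miRNA shares of -1.08 (-3.40 to 1.25) and -1.49 (-4.42 to 1.44). Both intervals span changes of more than 2-fold in either direction. Mir4660 had 2 reads and Mir669h 1 read in mESCs only, and Mir466g 1 read in prospermatogonia only, and no ratio is given for them.

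**Figure D2:**
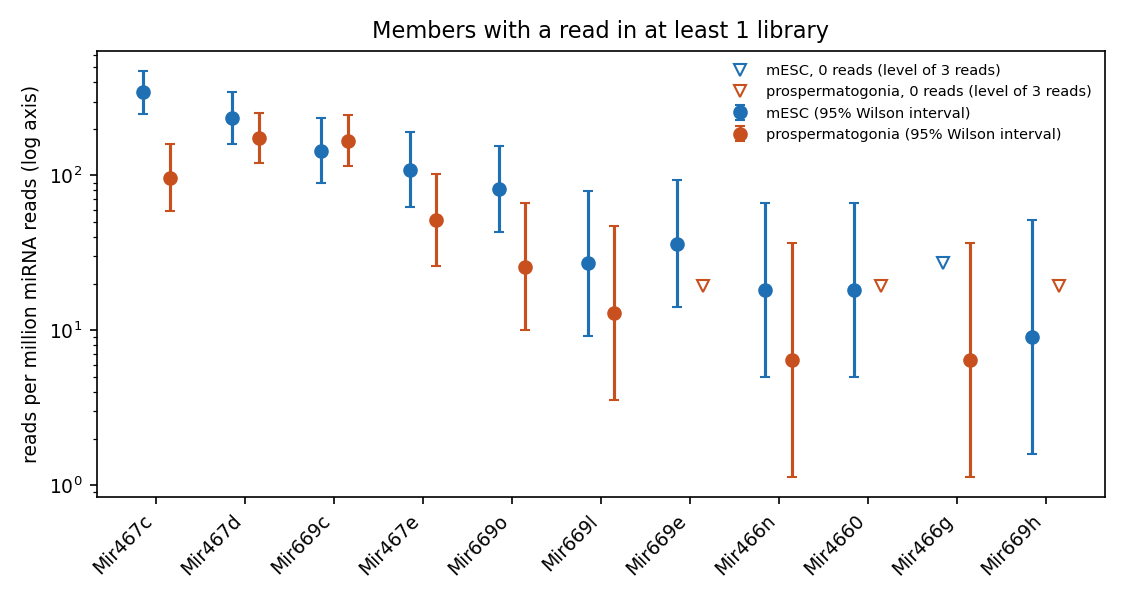
Level of each member with a read, in reads per 1000000 miRNA reads on a log axis, for the mESC library (blue) and the prospermatogonia library (orange), with 95% Wilson intervals, and open triangles at the level of 3 reads where a library had none. The counting intervals of Mir467c do not overlap (344 against 96.6), whereas those of Mir467d (235 against 174) and Mir669c (145 against 167) do.

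To compare levels in RPM with the rest of the table, log2 ratios of prospermatogonia to mESC were taken with a pseudocount of 1 RPM, and features had to reach 10 RPM in either library. Of the 119 members 5 passed this filter, all of them through the mESC library. Their log2 ratios on the log2(RPM + 1) scale were -3.78 for Mir467c, -3.13 for Mir669o, -2.87 for Mir467e, -2.50 for Mir467d and -1.86 for Mir669c. All 5 were at least 2-fold lower in prospermatogonia and none was higher, beside 80.8% and 9.85% of the 203 features past the filter. None of the 5 reached 10 RPM in prospermatogonia, where their highest level was 9.41 RPM, so they had entered through the library in which they were higher and nothing is read from their count. Scaling each library to its summed miRNA reads moved prospermatogonia up by 2.18 (log2) relative to mESCs, and scaling to the median ratio by 2.37. With both, Mir467c, Mir467d, Mir467e and Mir669o kept a negative log2 ratio, while that of Mir669c turned positive, and the members at least 2-fold lower fell from 5 to 3 and to 2. Mir467d was then at -0.43 and -0.24 and Mir467e at -1.02 and -0.84.

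**Figure D3:**
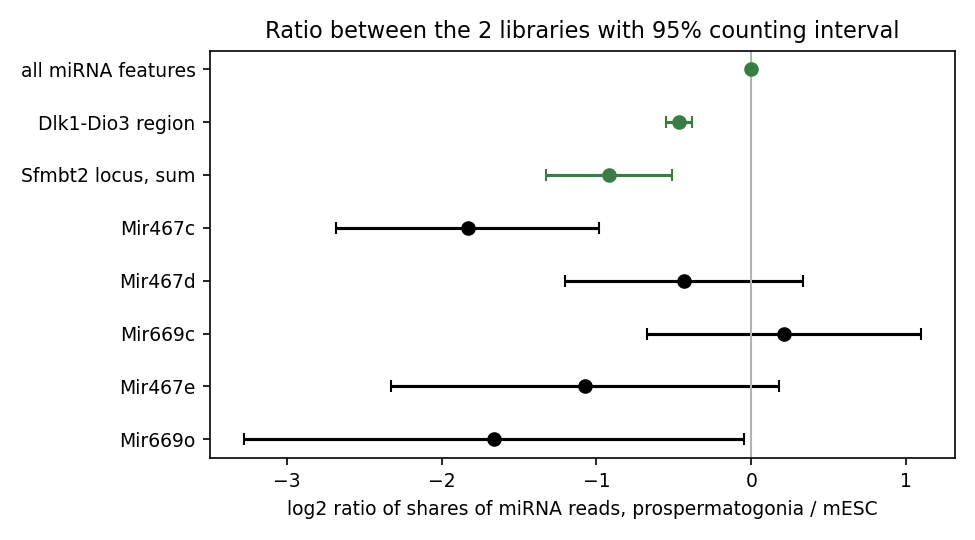
Log2 ratio of the share of miRNA reads, prospermatogonia over mESC, with 95% counting intervals, for all miRNA features, the Dlk1-Dio3 region, the sum of the Sfmbt2 array and its 5 leading members, with a line at equal shares. The array as a sum lies at -0.92 and the Dlk1-Dio3 region at -0.47, and of the 5 members only Mir669c lies to the right of the line.

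By family, the Mir467 members carried most of the reads. The 15 Mir467 members held 76 of 113 reads (67.3%) in mESCs and 50 of 84 (59.5%) in prospermatogonia, all from Mir467c, Mir467d and Mir467e. The 29 Mir669 members held 33 reads (29.2%) and 32 reads (38.1%), from 5 members, and the 24 Mir466 members 4 and 2 reads, from 3 members. The 5 Mir297 members and the 46 members without a family name were at 0 in both libraries. Reads of the Mir467 and Mir669 families were thus concentrated in a small number of copies, and 12 of the 15 Mir467 members had none.

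Members with reads lay towards both ends of the array. From Mir467c to Mir467e, over 31.7 kb (chr2:10474028-10505720), 72 members in a row had no read in either library. Of the 17 members up to and including Mir467c 4 had a read, as did 7 of the 30 from Mir467e on. This stretch is also where the copies are most alike. Of its 72 members 52 had no 20-base window of their own, that is, no window absent from every other annotated miRNA hairpin on either strand, against 2 of the 47 members outside it. The median share of own windows was 0% within the stretch and 48.0% outside it.

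Over the whole array 117 of 119 members shared an exact stretch of at least 20 bases with another miRNA hairpin. The exceptions were Mir466g, with 1 read, and AL772216.15, with none. A total of 47 members had an exact duplicate of their hairpin within the array, so that the 119 members come to 88 distinct hairpins. The largest set of identical hairpins was the 9 copies Mir669a-4 to Mir669a-12, followed by 7 copies of the Mir467a type, and none of these 16 members had a read. All 11 members with a read had a hairpin sequence found once in the array. Several shared long exact stretches with members without a read. Mir669l shared 57 bases with Mir669d, Mir466n 47 with Mir466d, Mir669h 43 with AL772216.9 and Mir669c 36 with Mir669a-3, and Mir467c and Mir467e each shared 34 bases with 11 such members. The shortest were the 18 bases that Mir669e shared with 16 members, Mir669a-3 among them, and the 16 bases that Mir466g shared with 13, Mir466f-1 among them.

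None of the 54 members without an own window had a read in either library. Of 40 members with own windows over up to 50% of the hairpin 2 had a read, Mir467d and Mir4660, and of 23 members above 50% but below 100% there were 8 (34.8%). Of the 2 members with all windows their own, Mir466g had 1 read and AL772216.15 none. Own windows, which were sought against miRNA hairpins only, did not of themselves come with reads. The 54 members that had own windows and no read had them over 1.85% to 100% of the hairpin (median 37.1%), against 33.8% to 100% (median 57.4%) for the 11 with a read.

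**Figure D4:**
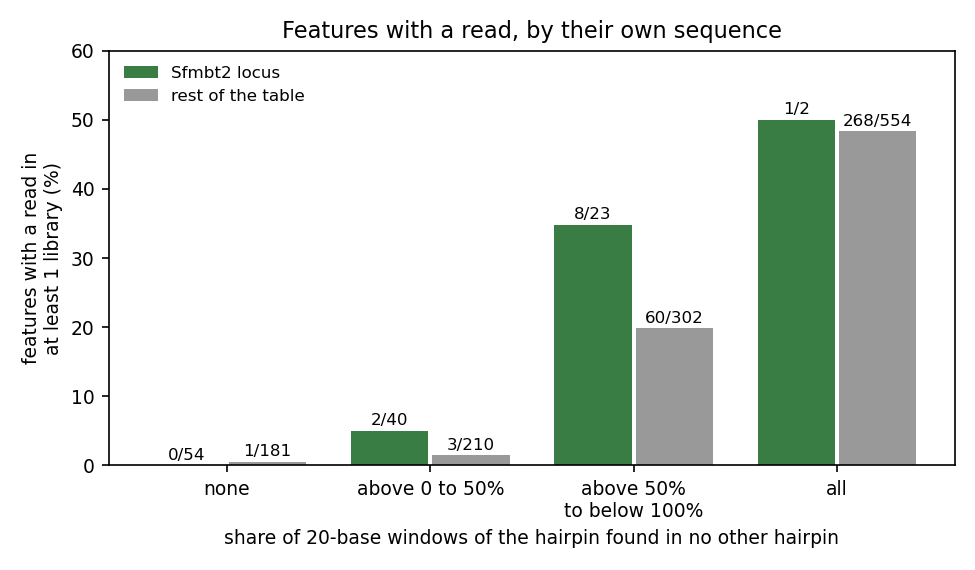
Percentage of features with a read in at least 1 library (y axis) by the share of 20-base windows found in no other miRNA hairpin (x axis), for the Sfmbt2 array (green) and the rest of the table (grey), with the numbers of features above the bars. No member without an own window had a read (0 of 54), as was so for all but 1 of 181 features in the rest of the table.

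The rest of the table showed the same order. Among the 1247 other features with an annotated hairpin, those with a read were 1 of 181 without an own window (0.552%), 3 of 210 up to 50% (1.43%), 60 of 302 above 50% (19.9%) and 268 of 554 with all windows their own (48.4%). The array differed from the rest in how its members fall into these classes, with a median of 19.8% own windows against 93.2%. The sources used here do not give how reads with several matches were counted. Absence of reads from the near-identical copies and loss of their reads in mapping or counting therefore cannot be told apart, and any reads of these copies are missing from the sums given above.

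Copies of the same families elsewhere in the genome gave no reads. The table holds 11 of them, on chromosomes 3, 5, 7, 9, 10, 11 and 13, among them Mir467h and Mir669n, whose mature strands are shown above. All 11 were at the lowest value in both libraries, and each had own windows (35.1% to 100% of the hairpin, median 63.4%). Own windows were sought against annotated miRNA hairpins only, so matches elsewhere in the genome, and loss of reads through them, were not tested. In the array 11 of 119 members (9.24%) had a read in at least 1 library, and 11 of the 65 with own windows (16.9%). Over all 1638 features it was 354 (21.6%), and 331 of the 1066 with own windows in the rest of the table (31.1%). All windows were their own in 2 of those 65 members and in 554 of those 1066 features. Within the classes the array was not lower, with 8 of 23 against 60 of 302 above 50% but below 100%. Up to 50% it was 2 of 40 against 3 of 210, and with all windows their own 1 of 2 against 268 of 554. The difference of the array from 0 of 11 was not tested. The limit for each of the 11 copies was 3 reads, or 0.00272% of miRNA reads in mESCs and 0.00193% in prospermatogonia.

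The Dlk1-Dio3 region of chromosome 12 is the other large imprinted miRNA cluster of the mouse, expressed from the maternal allele. Of its 56 features 35 (62.5%) had a read in mESCs and 37 (66.1%) in prospermatogonia, against 10 and 8 of the 119 members of the Sfmbt2 array. Its share of miRNA reads was 1.996% for mESCs (1.92 to 2.08) and 1.45% for prospermatogonia (1.39 to 1.51), so the Sfmbt2 array had the lower share in both libraries. The regions also differ in copy structure, with a median of 100% own windows in the Dlk1-Dio3 region. The log2 ratio of shares was -0.47 (-0.55 to -0.38) for Dlk1-Dio3 and -0.92 (-1.32 to -0.51) for the Sfmbt2 array. Both clusters were lower in prospermatogonia, and their intervals overlap. The difference between them was not tested.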

How the data were processed

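The smRNA-seq data were 1 mESC and 1 prospermatogonia library. The authors trimmed the reads (Trim Galore 0.4.1 in the submitters' processing notes) and mapped them with Bowtie through the pipeline piPipes, and they deposited log2 values for 1638 miRNA features. The methods name mm9, whereas the notes name GRCm38, with which the coordinates of the table match. Whether piPipes also made the table, and the counting step, its use of strand and its treatment of reads with several matches are not given in the sources used here. The deposited log2 values were read as log2 RPM. Library totals and RPM rest on this reading, whereas recovered reads and shares of miRNA reads do not. Features at the lowest value, equal to 0.9 reads, were set to 0. The total miRNA reads were 110455 and 155237.

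Members were matched to GENCODE vM21 hairpins, 107 by exact position and 12 by overlap (at least 89.7% of the length), and the names are those of the table except where a GENCODE name is said to be used. Family names follow GENCODE or the table. A hairpin's own windows are its 20-base windows found in no other of 2202 annotated miRNA transcripts on either strand. The rest of the genome was not searched, and the windows cover the whole hairpin rather than its mature strands. Each member with a read is named, and for all of them but Mir467d the copies without a read that share the longest exact stretch with it, by number or by 1 example where several tie. Members, lists and comparison regions were chosen with earlier results of these data known, and the own windows after the reads of the members had been seen. Shares carry 95% Wilson intervals. Ratios of levels used a pseudocount of 1 RPM, a minimum of 10 RPM in at least 1 library and a 2-fold threshold. Pseudocounts, scalings, minimums, thresholds and totals were varied. The recovery of reads was run on simulated data, in which the reads of all 1638 features came back in each simulated library. This checks the calculation only. Simulated libraries cannot show what the lowest deposited value stands for, or that the unit of the deposited values is a single read. Python 3.11.15, numpy 2.4.6, pandas 2.3.3, Biopython 1.88 and matplotlib 3.10.9 were used. Some hairpin sequences are not reported here.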

Additional observations from a re-analysis of the deposited data

How the results depend on the processing

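No paired analysis was possible because there was 1 library of each kind, and for the same reason no replicate could be left out. The count of 5 members at least 2-fold lower in prospermatogonia became 3 with scaling to the reads on all features and 2 with scaling to the median ratio, where Mir669c turned to log2 ratios of 0.20 and 0.39. It was 10 (of 11) when any read was enough, a setting at which a single mESC read against 0 already counts as lower and 230 of all 354 features did (65.0%), and 0 with 10 RPM required in both libraries, since no member reached that. With more than 3 reads required, 6 members were above the lowest value in mESCs in place of 10 and 5 in prospermatogonia in place of 8, and at the level of 3 mESC reads in both libraries it was 7 in mESCs and 2 in prospermatogonia. The cluster's share of 0.102% in mESCs and 0.0541% in prospermatogonia became 0.189% and 0.118% with features without a read at their deposited value, 0.0251% and 0.00293% of the library total, 0.368% and 0.205% without the 10 highest features of each library, and 0.0679% and 0.0367% without the highest member. The log2 ratio of shares was -3.10 on the library total, against -0.92. It was -0.73 with scaling to the median ratio, -0.85 without the 10 highest features and -0.71 without the highest member of each library. The median log2 ratio over members with reads in both libraries was -1.08. Windows of 18 or 22 bases, a choice added after seeing the data for own windows, gave the same 54 members without an own window and 117 sharing a stretch. A ratio over members sharing no stretch of 20 bases was not run, since these are Mir466g and AL772216.15 with 1 read in all. Depth limits each member with 3 reads or fewer, and the mESC library, in which a read is worth 2.22 RPM, more than the other.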
